A study of Mus musculus with 12 samples.

Results

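The expression of 10 stromal and mesenchymal markers was compared between Blimp-1 cKO and wild type MEC 3D cultures harvested on culture days 3 and 4 (D3 and D4). MEC cultures are primary mammary epithelial cells that form hollow acini on Matrigel, and RNA was measured on 12 Illumina Mouse WG-6 v2 arrays, 3 each for D3 cKO, D3 wild type, D4 cKO and D4 wild type. The cKO cells came from Prdm1 BEH/CA;ROSA26:CreERT2 mice and the wild type cells from C57BL/6 mice, all collected in late pregnancy, and cells of both genotypes received 4-hydroxytamoxifen on D0 to activate Cre. CreERT2 driven from ROSA26 is present in all cell types, and no source used here describes it in the wild type mice, so that the effects of Blimp-1 loss, Cre activity and mouse line cannot be told apart. The study's methods describe the cultures as independent, but no source used here says which culture or mouse each of the 3 arrays in a group came from, and the p-values rest on the spread among these arrays, which may in part be technical.

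The 10 genes were taken by name and all their probes were examined. They comprise 7 fibroblast markers (Pdpn, Pdgfra, Pdgfrb, Thy1, Dcn, Lum and S100a4). The other 3, Vim, Snai2 and Zeb1, are genes of mesenchymal cells and epithelial-mesenchymal transition (EMT). The set makes up 10 of 19057 genes that have a probe with 1 gene symbol, and it carries 18 of 45281 probes. Fibroblasts are the matrix-producing cells of connective tissue, and they surround the ducts and alveoli of the mammary gland. In EMT, epithelial cells reduce their cell-cell adhesion and take up mesenchymal genes, under transcription factors of the Snail, Zeb and Twist families that bind E-box sequences. Several of the genes are not restricted to fibroblasts, since vimentin, podoplanin and Slug, the product of Snai2, are also known from basal mammary epithelial cells.

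Each array detected between 18087 and 18905 probes, with a detection p-value under 0.05 against the negative control beads, and arrays of a group correlated at 0.991 to 0.994 on average. The epithelial genes Epcam and Cdh1 were detected on all 12 arrays, as the labelled cell type requires. Prdm1, the targeted gene, was detected on 4 of 6 cKO arrays and on 0 of 6 wild type arrays. Where its probe lies relative to the deleted part of the gene is unknown here, so it does not check the labels.

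All 10 markers had at least 1 probe above background on 3 or more arrays, which was the condition for testing a probe. In all, 12 of their 18 probes were tested, 10 were detected on all 12 arrays and 6 on no array. The 6 undetected probes belong to Dcn (2 probes), Vim, Thy1, Lum and Zeb1 (1 each), and each of these genes also had a probe that was detected. Lum, a small leucine-rich proteoglycan of collagenous matrix, was near the limit of detection and was detected on 2 of 3 D3 cKO arrays, 1 of 3 D3 wild type arrays and all 3 arrays of each genotype at D4. Transcripts of fibroblast markers were therefore present in cultures of both genotypes. Fewer cells of a type and less RNA per cell cannot be told apart in such bulk samples.

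Where a gene had several tested probes, the brightest stood for it, as for 10724 genes in all. Values are background-corrected, quantile-normalized signals on the log2 scale, and levels are compared between arrays for 1 probe and not between probes. A gene was called where the adjusted p was at most 0.05 and the fold at least 1.5.

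At D3 the log2 fold change of cKO over wild type was above 0 for 10 of 10 markers, with a median of 0.48 against -0.02 over all genes tested. At D4 it was above 0 for 8 of 10, with a median of 0.50 against -0.02. Few of these differences passed. The one marker called was Pdpn, higher at each day, where 1.94% of all genes tested were called higher and 0.550% lower at D3 and 2.79% and 1.45% at D4. Averaged over both days, where all 12 arrays enter, Pdpn, Vim and Zeb1 were called higher and 0 of 10 were lower. Among all genes tested 3.60% were called higher and 1.06% lower. In this average 6 markers had an unadjusted p under 0.05, as had 2310 of 10724 genes tested. At D3 and D4 it was 4 markers each, and 1343 and 2139 of the genes tested. Counts of unadjusted p for gene lists below are to be read against these. All 3 cKO arrays lay above all 3 wild type arrays for 4 of 10 markers at D3 (Pdpn, Vim, Zeb1 and Thy1) and for 3 of 10 at D4 (Pdpn, Vim and Zeb1), while this held for 9.51% and 11.6% of all genes tested.

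**Figure D1:**
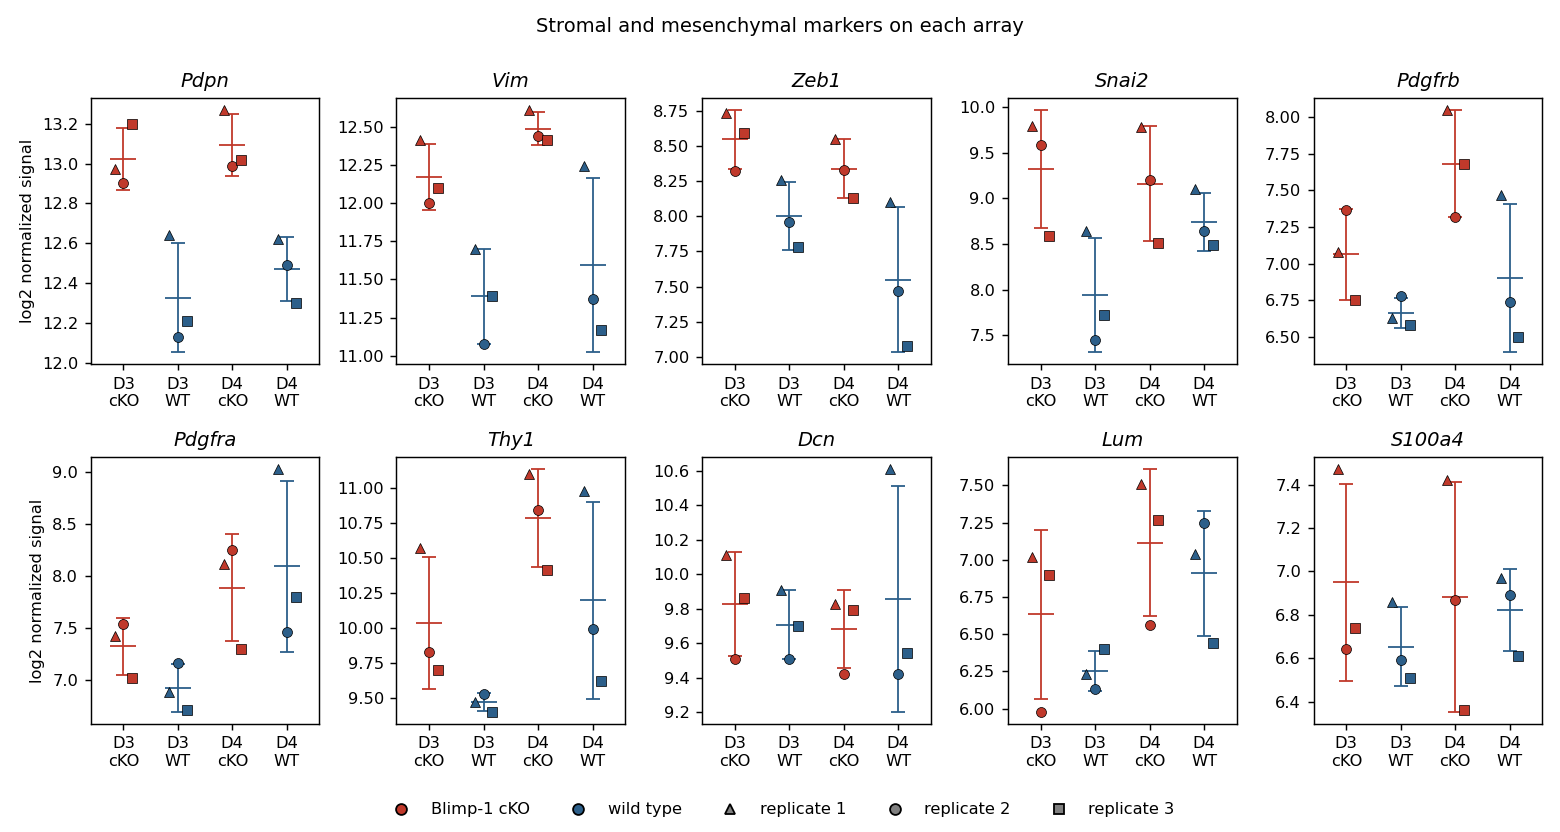
Log2 normalized signal of the probe that stands for each of the 10 markers, on each array, by day and genotype (red, Blimp-1 cKO; blue, wild type; marker shape, replicate number; dash and bars, mean and SD of 3 arrays). The cKO arrays of Pdpn, Vim and Zeb1 lie above the wild type arrays of the same day, and D4 wild type replicate 1 lies above the other arrays of its group for most markers.

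Pdpn encodes podoplanin, a mucin-type membrane glycoprotein of lymphatic vessels, stromal fibroblasts and some basal epithelia, which binds ezrin and moesin inside the cell. Its single probe gave 12.97, 12.90 and 13.20 on the D3 cKO arrays, against 12.64, 12.13 and 12.21 on the D3 wild type arrays. At D4 it gave 13.27, 12.99 and 13.02 on the cKO arrays, against 12.62, 12.49 and 12.30 on the wild type arrays. Every cKO array was above every wild type array of either day. The log2 fold change was 0.70 (SE 0.15, adjusted p = 0.0357) at D3 and 0.63 (SE 0.15, adjusted p = 0.0420) at D4, a 1.62-fold and a 1.54-fold difference. Averaged over both days it was 0.66 (SE 0.11, adjusted p = 0.00296), and an exact permutation of genotype labels within days, two-sided, gave p = 0.005, the smallest it can give. That test takes the D3 and D4 arrays as independent, while same-numbered cKO arrays of both days deviated together. With their labels permuted jointly the exact p was 0.1, again the smallest possible, and with the number within each genotype as a random block the adjusted p was 0.00617 (both chosen after seeing the data). The cKO means were 13.09 ± 0.15 at D4 and 13.02 ± 0.16 at D3, and the wild type means 12.47 ± 0.16 at D4 and 12.33 ± 0.27 at D3 (SD, n = 3 each). The days did not differ beyond this spread, with 0.07 (adjusted p = 0.834) between D4 and D3 in cKO and 0.14 (adjusted p = 0.570) in wild type.

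The call of Pdpn in a single day lay close to the threshold. Leaving out any 1 of the 6 arrays of its day other than wild type replicate 1 ended it, with an adjusted p of 0.0662 to 0.165 at D3 and 0.0671 to 0.152 at D4. The averaged call held in 20 of 20 alternative treatments, with adjusted p-values up to 0.0112.

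Vim encodes vimentin, the type III intermediate filament of mesenchymal cells. Its detected probe gave 12.41, 12 and 12.10 on the D3 cKO arrays, against 11.70, 11.08 and 11.39 on the D3 wild type arrays. On the D4 arrays its values were 12.61, 12.44 and 12.41 on the cKO arrays, against 12.24, 11.37 and 11.17 on the wild type arrays. The groups did not overlap at either day, and the highest wild type array at D4 was replicate 1. Between genotypes it differed on the log2 scale by 0.78 (SE 0.25, adjusted p = 0.180) at D3 and 0.89 (SE 0.25, adjusted p = 0.0674) at D4, neither of which passed. Averaged over both days it was 0.84 (SE 0.18, adjusted p = 0.0141), 1.79-fold, with an exact p = 0.005 within days and 0.1 jointly and a call in 20 of 20 alternative treatments (adjusted p up to 0.0404, and 0.0221 with the random block). In order, Vim had 12.49 ± 0.11 in D4 cKO, 12.17 ± 0.21 in D3 cKO, 11.59 ± 0.57 in D4 wild type and 11.39 ± 0.31 in D3 wild type (SD, n = 3 each), and within a genotype the days did not pass (adjusted p = 0.498 in cKO and 0.624 in wild type).

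The stretches just before the transcription start of Pdpn and Vim are printed here because these were the markers whose averaged call held in all alternatives run for the average. RefSeq promoter windows (build GRCm38.p6) were at hand here for 4 of the 10 markers, namely Pdpn, Vim, Pdgfra and S100a4. Each printed window holds the 250 bases upstream of the start, read 5′ to 3′ on the strand of the gene, at chr4:143299565-143299814 (minus strand) for Pdpn and chr2:13574061-13574310 (plus strand) for Vim. Capitals mark matches, on either strand, to an E-box (CAGGTG), a Blimp-1 core (GNGAAAG), an AP-1 site (TGANTCA), the core promoter motif of the TATA box (TATAAA) or the CCAAT box, whose letters are its name, the last 2 of which were added after the windows had been read.
Pdpn: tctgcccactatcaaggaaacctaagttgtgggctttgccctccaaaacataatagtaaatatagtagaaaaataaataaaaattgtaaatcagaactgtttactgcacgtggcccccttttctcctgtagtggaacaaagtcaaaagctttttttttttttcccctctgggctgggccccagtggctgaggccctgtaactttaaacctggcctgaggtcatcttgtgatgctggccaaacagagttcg
Vim: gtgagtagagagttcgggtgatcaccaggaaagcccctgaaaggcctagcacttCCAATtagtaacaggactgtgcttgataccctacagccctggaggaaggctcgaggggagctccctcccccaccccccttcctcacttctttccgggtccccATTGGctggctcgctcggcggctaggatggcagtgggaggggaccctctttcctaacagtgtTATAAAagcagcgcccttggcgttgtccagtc

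The Pdpn window, 43.2% G and C, held no match to any of the 5 motifs. The Vim window, 58.4% G and C, held a TATA box at -32 to -27 from the start and CCAAT boxes at -196 to -192 and, on the opposite strand, at -94 to -90, none of which overlapped. The E-box, the motif of the Snail and Zeb factors, occurred in neither window and in 17.2% of 32851 windows of the same length, the Blimp-1 core in 19.4%, the AP-1 site in 6.7%, the TATA box in 12.4% and the CCAAT box in 33.8%. Of the other members with a window at hand, Pdgfra held 1 Blimp-1 core match at -232 to -226 and S100a4 a TATA box at -31 to -26. These are matches of letters and were not tested as binding sites.

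Zeb1 encodes a zinc finger and homeodomain repressor of epithelial genes such as Cdh1. It gave 8.73, 8.32 and 8.59 on the D3 cKO arrays, against 8.26, 7.96 and 7.78 on the D3 wild type arrays. A day later the same probe gave 8.55, 8.33 and 8.13 on the cKO arrays, against 8.10, 7.47 and 7.08 on the wild type arrays. The cKO arrays were above the wild type arrays at each day, narrowly so between cKO replicate 3 and wild type replicate 1 at D4. As a log2 fold change this was 0.55 (SE 0.23, adjusted p = 0.355) at D3 and 0.79 (SE 0.23, adjusted p = 0.0821) at D4. Averaged over both days it was 0.67 (SE 0.16, adjusted p = 0.0305, exact p = 0.005 within days and 0.1 jointly), a call that held in 11 of 20 alternative treatments, among them the random block (adjusted p = 0.0462). It ended on leaving out any of 8 arrays, namely replicates 1 and 3 of D3 cKO, 2 and 3 of D3 wild type, 1 and 2 of D4 cKO and 2 and 3 of D4 wild type (adjusted p = 0.0559 to 0.0818), and without background correction, where the difference was 0.39. Group means were 8.55 ± 0.21 in D3 cKO, 8.34 ± 0.21 in D4 cKO, 8.0 ± 0.24 in D3 wild type and 7.55 ± 0.51 in D4 wild type (SD, n = 3 each), and Zeb1 was the one marker of the 10 whose D4 mean lay below its D3 mean in both genotypes (-0.21, adjusted p = 0.641 in cKO and -0.45, adjusted p = 0.210 in wild type).

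Snai2, the gene of the transcription factor Slug, which is required for full basal differentiation of mammary cells in the mouse, had the largest difference of the 10 markers at D3. It gave 9.80, 9.59 and 8.59 on the D3 cKO arrays, against 8.64, 7.45 and 7.72 on the D3 wild type arrays. At D4 the signals were 9.78, 9.20 and 8.51 on the cKO arrays, against 9.10, 8.64 and 8.49 on the wild type arrays. The groups overlapped at both days, since cKO replicate 3 was the lowest cKO array at each day and lay just below the highest wild type array at D3. The log2 fold change was 1.39 (SE 0.40, adjusted p = 0.130) at D3, 0.42 (SE 0.40, adjusted p = 0.642) at D4 and 0.90 (SE 0.28, adjusted p = 0.0841) averaged, so Snai2 was not called. Without D3 wild type replicate 1 the averaged difference was 1.08 (adjusted p = 0.0391), and with the replicate block Snai2 was called at D3 (adjusted p = 0.00782) and in the average (adjusted p = 0.00621). The difference of the genotype effect between the days was -0.97 (SE 0.57, adjusted p = 0.736), and the smaller difference at D4 was thus not told apart from that at D3.

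S100a4, also known as FSP1, encodes a calcium-binding protein of fibroblasts, motile cells and myeloid cells. It gave 7.47, 6.64 and 6.74 on the D3 cKO arrays, against 6.86, 6.59 and 6.51 on the D3 wild type arrays. The D4 values were 7.42, 6.87 and 6.36 on the cKO arrays, against 6.97, 6.89 and 6.61 on the wild type arrays. The ranges overlapped at both days, and the cKO arrays spanned the wild type arrays at D4. Between genotypes it differed on the log2 scale by 0.30 (95% confidence interval -0.29 to 0.89) at D3 and 0.06 (-0.52 to 0.65) at D4, which leaves room for a 1.5-fold difference in cKO at either day.

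The receptors for platelet-derived growth factors, which carry the growth signal of fibroblasts (Pdgfra) and of pericytes and fibroblasts (Pdgfrb), did not pass between genotypes. Pdgfrb gave 7.08, 7.37 and 6.75 on the D3 cKO arrays, against 6.63, 6.78 and 6.58 on the D3 wild type arrays. For D4 the signals were 8.05, 7.32 and 7.68 on the cKO arrays, against 7.47, 6.74 and 6.50 on the wild type arrays. As a log2 fold change this was 0.40 (SE 0.25, adjusted p = 0.583) at D3, 0.78 (SE 0.25, adjusted p = 0.113) at D4 and 0.59 (SE 0.18, adjusted p = 0.0745, exact p = 0.025 within days and 0.1 jointly) averaged. The probe was dim, with signals of 233 to 454 before normalization against array medians of 194 to 271. Without background correction the differences of Pdgfrb were 0.16 at D3, 0.36 at D4 and 0.26 averaged. At each day the lowest cKO array lay just below the highest wild type array, which was replicate 2 at D3 and replicate 1 at D4.

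Pdgfra gave 7.43, 7.54 and 7.02 on the D3 cKO arrays, against 6.89, 7.17 and 6.72 on the D3 wild type arrays. At D4 it gave 8.12, 8.25 and 7.30 on the cKO arrays, against 9.03, 7.47 and 7.80 on the wild type arrays. The genotype difference was 0.40 (SE 0.36, adjusted p = 0.729) at D3 and -0.21 (SE 0.36, adjusted p = 0.819) at D4, and the days were not told apart (-0.62, SE 0.51, adjusted p = 0.829). A second tested probe of Pdgfra was detected on 5 of 12 arrays, of which 0 were D4 wild type arrays, and its differences were 0.20 at each day (adjusted p = 0.739 at D3 and 0.632 at D4).

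Thy1, the gene of the surface glycoprotein CD90, gave 10.57, 9.83 and 9.70 on the D3 cKO arrays, against 9.47, 9.53 and 9.40 on the D3 wild type arrays. On the D4 arrays its values were 11.10, 10.84 and 10.41 on the cKO arrays, against 10.98, 9.99 and 9.62 on the wild type arrays. The groups were apart at D3 and overlapped at D4, where wild type replicate 1 exceeded 2 of the 3 cKO arrays. The log2 fold change was 0.57 (SE 0.32, adjusted p = 0.535) at D3, 0.59 (SE 0.32, adjusted p = 0.361) at D4 and 0.58 (SE 0.23, adjusted p = 0.172, exact p = 0.05 within days and 0.2 jointly) averaged.

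Neither proteoglycan gene of the set was called between genotypes. Dcn, which encodes decorin, gave 10.11, 9.51 and 9.86 on the D3 cKO arrays, against 9.91, 9.51 and 9.70 on the D3 wild type arrays. A day later the same probe gave 9.83, 9.42 and 9.79 on the cKO arrays, against 10.61, 9.42 and 9.54 on the wild type arrays. The log2 fold change of Dcn was 0.12 (95% confidence interval -0.49 to 0.73) at D3 and -0.18 (-0.79 to 0.44) at D4, and a second probe detected on all arrays gave 0.06 and -0.01. Lum gave 7.02, 5.98 and 6.90 on the D3 cKO arrays, against 6.23, 6.13 and 6.40 on the D3 wild type arrays. At D4 the signals were 7.51, 6.56 and 7.27 on the cKO arrays, against 7.04, 7.25 and 6.44 on the wild type arrays. Both genes overlapped between genotypes at both days, and the intervals of Lum were -0.30 to 1.06 around 0.38 at D3 and -0.47 to 0.89 around 0.21 at D4.

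**Figure D2:**
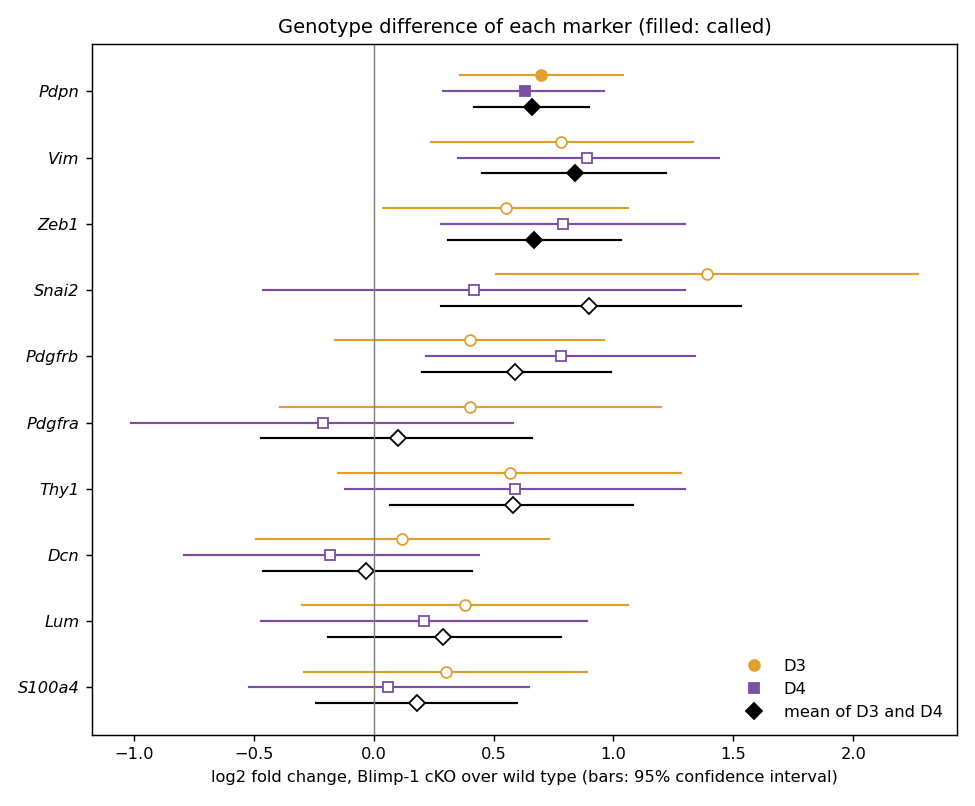
Log2 fold change of Blimp-1 cKO over wild type for each marker at D3, at D4 and averaged over both days, with 95% confidence intervals of the limma fit, filled where called. The filled points are those of Pdpn in all 3 comparisons and of Vim and Zeb1 in the average, and the intervals of Pdgfra, Dcn, Lum and S100a4 include 0 in each.

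Whether the markers changed between the days was asked within each genotype. From D3 to D4, 0 of 10 markers were called in cKO by limma (2 with an unadjusted p under 0.05, Thy1 and Pdgfrb, and 0 by an unmoderated test of the same arrays), against 2.53% of all genes called higher and 1.61% lower. An unadjusted p under 0.05 was found in this comparison for 2620 of 10724 genes tested. In wild type, Pdgfra was called higher at D4 and 0 of 10 lower, against 7.09% and 4.89% of all genes. The D4 minus D3 difference of Pdgfra was 1.17 (SE 0.36, adjusted p = 0.0438) in wild type and 0.56 (SE 0.36, adjusted p = 0.395) in cKO. All 3 D4 wild type arrays of Pdgfra lay above the D3 ones, as also for Thy1 and Lum, against 20.2% of all genes tested. The second Pdgfra probe was detected on 1 of 6 wild type arrays and gives no measure of this change. The Pdgfra call ended on leaving out any wild type array but D4 replicate 2, and without D4 wild type replicate 1 the difference was 0.71 (adjusted p = 0.120). Without that array Zeb1 was called lower at D4 in wild type (-0.72, adjusted p = 0.0355). The genotype effect differed between the days for 0 of 10 markers (0 with an unadjusted p under 0.05) and for 0% of all genes tested (793 with an unadjusted p under 0.05).

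Most markers varied together from array to array within groups. D4 wild type replicate 1 was the highest array of its group for 9 of 10 markers, by a median of 0.84 above the mean of the other D4 wild type arrays, where the median over all genes was 0.00. Before normalization, its Vim signal was 5003 against 2636 and 2186 on the other arrays of that group, its Dcn signal 1758 against 811 and 810, and its Thy1 signal 2228 against 1118 and 848. Replicate 1 was also the highest array for 9 of 10 markers in D4 cKO, 7 in D3 cKO and 6 in D3 wild type, with medians of 0.41, 0.39 and 0.31 above the other arrays. The exceptions in D4 were Pdgfra in cKO and Lum in wild type, where replicate 2 was highest.

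**Figure D3:**
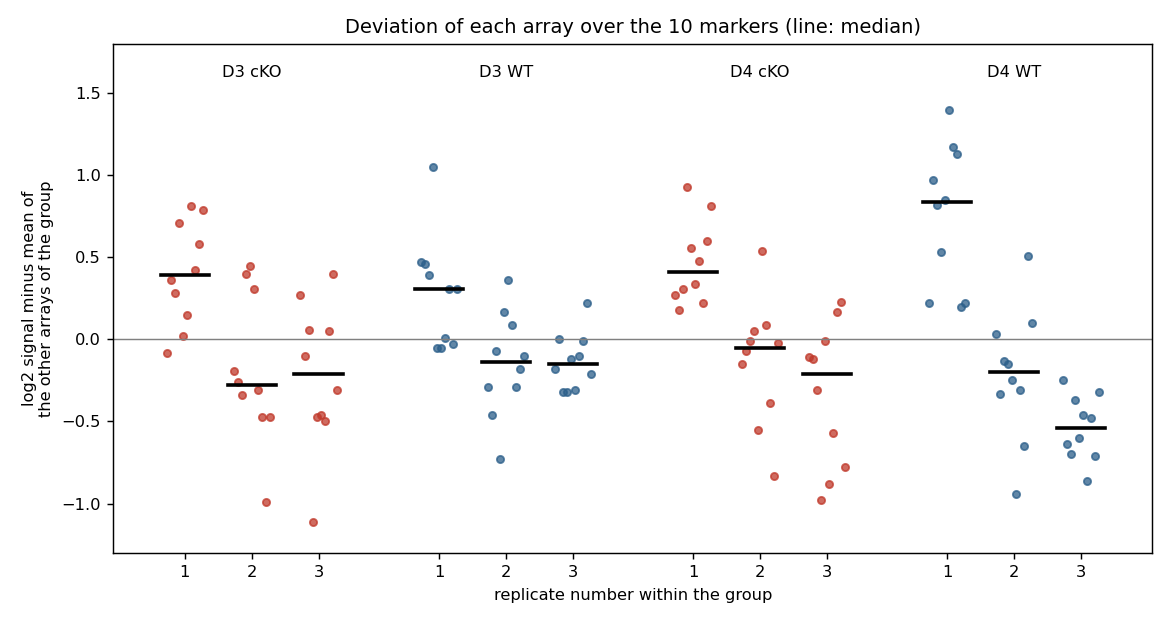
Log2 normalized signal of each marker on an array minus its mean on the other arrays of the group (points, 10 markers; black line, their median), by group and replicate number. The median of replicate 1 is above 0 in all 4 groups and is 0.84 in D4 wild type.

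The D4 arrays lay on 3 BeadChips, numbered as the replicates, each with 1 cKO and 1 wild type array. Within chips 1, 2 and 3 the cKO minus wild type difference was 0.65, 0.51 and 0.71 for Pdpn, 0.37, 1.07 and 1.24 for Vim and 0.45, 0.86 and 1.05 for Zeb1. It was above 0 on all 3 chips for 6 of 10 markers, which also include Pdgfrb, Thy1 and Snai2, and below 0 on all chips for 0, while it was above 0 on all 3 for 18.9% of all genes tested. Pdgfra had -0.91, 0.77 and -0.49 and Dcn -0.78, 0.00 and 0.26, with the lowest value on the chip of wild type replicate 1. With replicate as a blocking factor for the 12 arrays, Pdpn, Vim and Zeb1 were called at D4 (adjusted p = 0.0265, 0.0138 and 0.0172), against 4.03% of all genes called higher. With the block in the 6 D4 arrays alone none of the 10 was called, where the adjusted p of the 3 genes was 0.106, 0.129 and 0.108.

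D4 wild type replicate 1 was singled out after its high values were seen. Leaving out a high wild type array raises the cKO minus wild type difference, so the calls without it are no independent support. Leaving out any other single D4 array gave 0 called markers at D4. Without D4 wild type replicate 1, 4 markers were called higher at D4, namely Vim (1.22, adjusted p = 0.00535), Zeb1 (1.06, adjusted p = 0.0125), Pdgfrb (1.06, adjusted p = 0.0240) and Pdpn (0.70, adjusted p = 0.0465), against 3.38% of all genes tested. Averaged over both days without it, 5 were called, with Thy1 (0.77, adjusted p = 0.0247) as the fifth, against 4.17%. Leaving out replicate 1 of all 4 groups, a choice made after seeing the data, gave 2 called markers at D3 (Pdpn and Vim, against 1.69% of all genes), 2 at D4 (Vim and Zeb1, against 2.64%) and 3 in the average (Pdpn, Vim and Zeb1, against 3.68%).

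Over the 12 arrays the correlation of the markers was above 0 in 45 of 45 pairs, with a median r of 0.52, and after subtracting group means it was above 0 in 44 of 45, with a median of 0.56 and a lowest value of -0.21 for Pdgfra and Lum. These are descriptions over arrays that share genotype, day and replicate. Dcn and Vim had r = 0.43 over the arrays but 0.91 within groups, and of the pair only Vim was called between genotypes. Outside the set, the gene most like Vim over the 12 arrays was Sparc, which encodes a collagen-binding matrix protein (r = 0.986), followed by Dennd2a (0.967) and the microfibril gene Mfap5 (0.958). The genes most like Thy1 were Scarf2 (0.968), Cd248, the gene of the stromal sialomucin endosialin (0.959), and Serpinf1 (0.952), and those most like Pdgfrb were Arid3b (0.973), Pla1a (0.932) and the elastin gene Eln (0.930). Zeb1 was most like Emp3 (0.969), Dpysl3 (0.951) and Sema7a (0.944). Pdpn was most like Fbxo2 (0.943), Rbpms (0.936) and Jam2 (0.934), and Snai2 most like Tril (0.954), Mme (0.949) and 1700016K19Rik (0.932). For Pdgfra the leading genes were Golga1 (0.937), Stc1 and Zfp276, for Dcn Cdk10 (0.855), Pid1 and Slc4a3, for Lum Dbn1 (0.887), Gmppa and Eif4ebp1, and for S100a4 2310022A10Rik (0.916), Prkcsh and Npc1.

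A wider list of 20 fibroblast genes, chosen like the other lists with earlier results of these data known, was measured beside the markers. Of its genes, 16 were tested, and Mfap4, Dpt, Pi16 and Tcf21 were not detected on enough arrays. By limma 0 of the 16 were called at D3 or D4 (8 and 6 with an unadjusted p under 0.05), with median log2 fold changes of 0.52 and 0.43. Sparc gave 13.57, 13.05 and 12.93 on the D3 cKO arrays, against 12.64, 12.15 and 12.31 on the D3 wild type arrays, and 13.81, 13.52 and 13.46 on the D4 cKO arrays, against 13.36, 12.38 and 12.22 on the D4 wild type arrays. The differences of Sparc were 0.82 (adjusted p = 0.213) and 0.94 (adjusted p = 0.0783), and those of Col1a1, a chain of type I collagen, were 0.56 (adjusted p = 0.578) and 0.90 (adjusted p = 0.181). Averaged over both days, 4 of the 16 were higher and 0 lower, against 3.60% and 1.06% of all genes tested. The 4 were Sparc (0.88, adjusted p = 0.0181), Col1a2 (0.64, adjusted p = 0.0118), Mfap5 (0.86, adjusted p = 0.0404) and Fbln1 (0.77, adjusted p = 0.0387), the last 3 named after their values were seen. D4 wild type replicate 1 stood 0.89 above the other arrays of its group in the median of this list. Without it 5 of the 16 were called higher at D4, against 3.38% of all genes tested. Without replicate 1 of all groups 4 of the 16 were, against 2.64%. No other array was left out for the lists, and leaving out a high wild type array raises the differences. Such counts for the lists below are to be read with this limit and these shares.

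The program of EMT was examined through lists of its other factors, of mesenchymal effectors and of epithelial genes. Of 10 tested EMT factors besides Snai2 and Zeb1, 0 were called by limma at either day (1 and 5 with an unadjusted p under 0.05), with medians of 0.16 at D3 and 0.29 at D4. Twist2, a bHLH factor, had 0.92 (adjusted p = 0.0850) at D3 and 0.66 (adjusted p = 0.152) at D4 and was higher in the average (0.79, adjusted p = 0.0157), and Snai1 had 0.16 and 0.67 (adjusted p = 0.895 and 0.279). Of 13 adhesion, matrix and protease genes, 0 were called at either day (4 and 5 with an unadjusted p under 0.05), with medians of 0.05 at D3 and 0.40 at D4. In the average 2 were higher and 0 lower, namely the gelatinase gene Mmp2 (0.78, adjusted p = 0.0341) and the tenascin gene Tnc (0.62, adjusted p = 0.0498). Cald1 and Axl, named after their values were seen, passed the adjusted p at D4 with a fold under the minimum. They had 0.55 (adjusted p = 0.0265) and 0.57 (adjusted p = 0.0361). Fn1 and Cdh2, named after their values were seen, had -0.78 and -0.61 at D3 (adjusted p = 0.234 and 0.302) and 0.40 and -0.03 at D4 (adjusted p = 0.481 and 0.972). Without D4 wild type replicate 1, 2 of the EMT factors and 4 of these 13 genes were called higher at D4, and without replicate 1 of all groups 1 and 3. Of 11 epithelial genes, 0 were called in any genotype comparison (0 at D3 and 1 at D4 with an unadjusted p under 0.05), with medians of -0.07 at D3 and -0.16 at D4. The epithelial regulator Grhl2 had 0.00 at D3 and -0.34 at D4 (adjusted p = 0.993 and 0.176) and the tight junction gene Marveld3 0.11 and -0.30 (adjusted p = 0.822 and 0.260). Named after their values were seen, Cdh1, the gene of E-cadherin, had -0.15 and 0.03 (adjusted p = 0.731 and 0.926) and Epcam -0.17 and -0.16 (adjusted p = 0.842 and 0.770). Around the other members, 10 ligands, receptors and SMAD proteins of the TGF-beta pathway, 4 partners of podoplanin and 3 small leucine-rich proteoglycans related to Dcn and Lum were tested. Of these 0 were called at either day, with medians of -0.02 and 0.11, -0.05 and 0.26, and 0.44 and 0.38 at D3 and D4. At D4 the furthest from 0 in each were Tgfbr3 and Tgfb1 (-0.60 and 0.46, adjusted p = 0.164 and 0.169), Cd44 and Lgals8 (0.41 and 0.29, adjusted p = 0.0436 and 0.313), and Bgn and Fmod (0.42 and 0.38, adjusted p = 0.255 and 0.491), where the fold of Cd44 was under the minimum. The remaining proteoglycan, Prelp, named after its values were seen, went the other way at D4 (-0.38, adjusted p = 0.528). At D3 Prelp had 0.64 (adjusted p = 0.377) and Fmod -0.25 (adjusted p = 0.780).

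**Figure D4:**
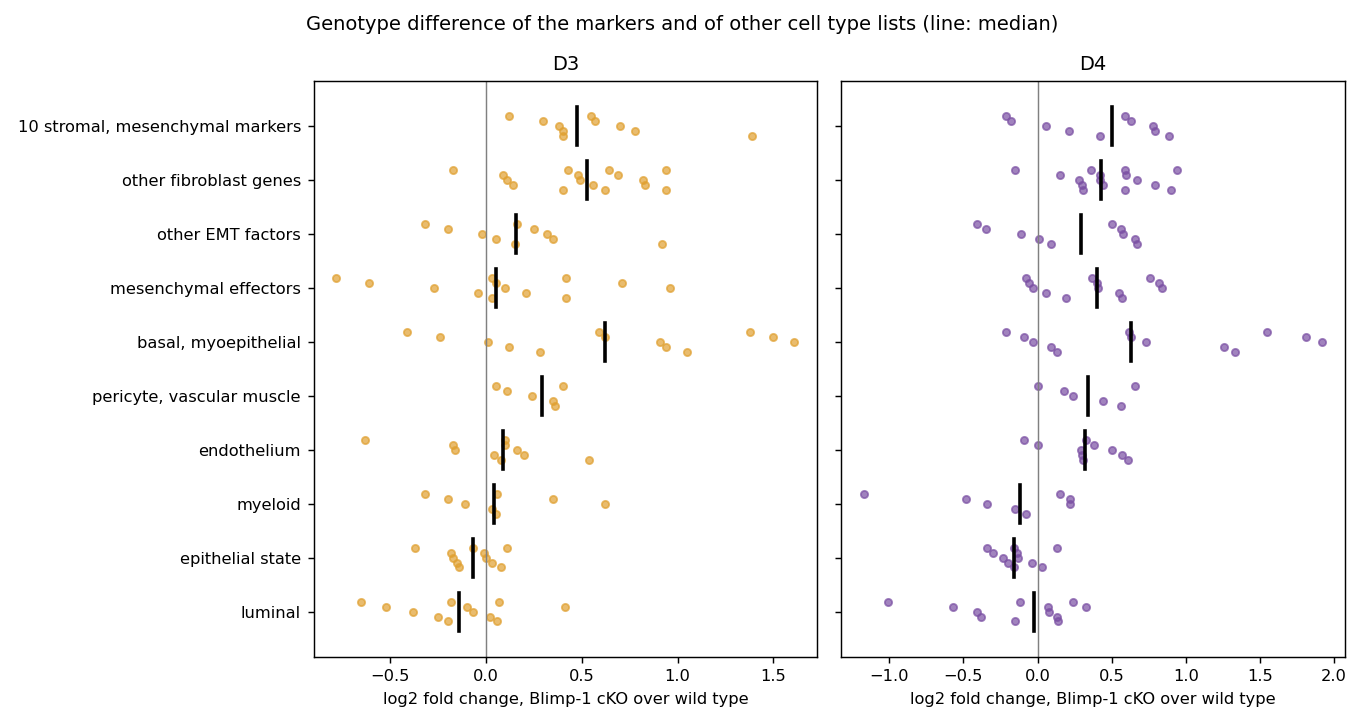
Log2 fold change of Blimp-1 cKO over wild type for the 10 markers and for the tested genes of 9 other lists, at D3 (left) and D4 (right), each point a gene and each black line a median. The medians of the markers are 0.48 and 0.50, those of the basal list 0.62 and 0.63 and those of the epithelial list -0.07 and -0.16.

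Genes of other cell types were set beside the markers. The 13 tested basal and myoepithelial genes had medians of 0.62 at D3 and 0.63 at D4, and their mean log2 signal was 10.36 to 11.10 on D3 cKO arrays, against 9.93 to 10.36 on D3 wild type arrays, and 10.50 to 10.94 on D4 cKO arrays, against 9.73 to 10.33 on D4 wild type arrays. Cdh3 was higher at D3 (0.91, adjusted p = 0.0359), and Actg2 (1.55, adjusted p = 0.0198) and Krt17 (0.62, adjusted p = 0.0304) at D4, and 8 of the 13 had an unadjusted p under 0.05 at each day. In the average 7 of the 13 were higher and 0 lower, against 3.60% and 1.06% of all genes tested. The 7 were Krt5 (1.76), Actg2 (1.47), Myh11 (1.43), Mylk (1.42), Tagln (1.10), Cdh3 (0.82) and Acta2 (0.62), with adjusted p-values of 0.00223 for Actg2 to 0.0393 for Tagln. Not called in the average were Krt17 (0.37), Trp63 (0.25), Egfr (0.18), Krt14 (-0.05), Itga6 (-0.10) and Jag2 (-0.22). Apart from Actg2, Cdh3 and Krt17 these genes were named after their values were seen. Without D4 wild type replicate 1, 6 of the 13 were called higher at D4, and without replicate 1 of all groups 5. The part of basal cells in the differences of Pdpn, Vim, Zeb1 and Snai2 was not tested. Of 12 tested luminal genes 0 were called at either day (0 and 3 with an unadjusted p under 0.05), with medians of -0.14 and -0.02. The luminal progenitor gene Kit had -0.20 at D3 and -1.01 at D4 (adjusted p = 0.836 and 0.0504), and Cd24a -0.38 and -0.57 (adjusted p = 0.697 and 0.361). Without D4 wild type replicate 1, Kit had -0.72 at D4 (adjusted p = 0.109) and Cd24a -0.84 (adjusted p = 0.170). The 6 tested genes of pericytes and vascular muscle had medians of 0.29 and 0.34, and the 10 of endothelium 0.09 and 0.32, with 0 called higher in either list (unadjusted p under 0.05 in either direction for 0 and 2 genes at D3 and D4 in pericytes and for 1 and 2 in endothelium). Of the pericyte genes, Cspg4 had 0.24 and 0.66 (adjusted p = 0.689 and 0.0792) and Mcam 0.35 and 0.56 (adjusted p = 0.407 and 0.0744). Without D4 wild type replicate 1, 2 of the 6 and 1 of the 10 were called higher at D4, and without replicate 1 of all groups 0 of either list. The defining leukocyte genes Ptprc, Adgre1 and Itgam were not tested because they were not detected on 3 arrays, as were all 6 lymphocyte genes with a probe and 6 of 7 adipocyte genes with a probe. Of the 8 myeloid genes tested, 6 were detected on all 12 arrays, namely Csf1r, Lyz2, Cd14, Fcgr3, Fcer1g and Laptm5. The medians of the 8 were 0.04 at D3 and -0.11 at D4. Only Lyz2, the lysozyme gene of macrophages, was called, lower in D4 cKO (-1.17, adjusted p = 0.00734). At D4 the adipocyte gene Lep, detected on 1 cKO and 0 wild type arrays, the Schwann cell genes Mbp and Sox10 (-0.20 and 0.08, adjusted p = 0.450 and 0.806) and the housekeeping genes Rplp0 and Hprt (-0.30 and -0.15, adjusted p = 0.176 and 0.537) were not called. On D4 wild type replicate 1 the median gene of the myeloid, endothelial, mesenchymal, pericyte and basal lists was 0.59, 0.58, 0.51, 0.42 and 0.39 above the other arrays of the group, while that of the luminal list was 0.04 above them, and what set this array apart was not tested.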

How the data were processed

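The 12 RNA samples were hybridised to Illumina BeadChips, and the authors summarised signals per probe in GenomeStudio. The deposited intensity values are non-normalized, with detection p-values that the authors deposited beside them. The authors' processed intensity values, used as an alternative after a floor of 10, are rank-invariant normalized and background-subtracted. The neqc function (offset 16) of the limma package, version 3.58.1, under R 4.3.3 normalized the signals. Testing was limited to 19972 of 45281 probes, those with a detection p-value under 0.05 on 3 or more arrays. A single gene symbol is given for 34885 probes, several for 18 and no symbol for 10378. A single limma fit of 12 arrays held the 4 group means, with Benjamini-Hochberg adjustment across every tested probe. For the change of the genotype effect with day, only the adjusted p decided a call. An exact permutation of 3 against 3 arrays cannot go below 0.1, and so labels were permuted within both days (400 assignments), or jointly for same-numbered arrays of both days (20 assignments), without adjustment over the 10 genes. With 3 arrays a group, their number limits the precision.

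The members and lists were chosen with earlier results of these data known. Besides all members, the rule names up to 4 called genes of each list at D3 or D4 with the largest change, or else the 2 with the largest change at D4, and the 3 genes most like each member. Other genes are marked as named after their values were seen. The alternatives were no filter, detection under 0.01 on all arrays of a group, no background correction, the processed values, the replicate block, trend and robust moderation, a fit of the compared arrays alone, a t-test (the methods name one for other data, and Illumina's custom error model for the arrays), any tested probe, no fold minimum and leaving out each array. The fit of the compared arrays alone and the t-test were not run for the average over both days. The D4 pairing by BeadChip comes from the column names of the study's probe table, whose values lie within 0.1 percent of those of the same group and number for 598 of 598 probes on each D4 array. The residual correlations of same-numbered arrays were -0.05, 0.03 and -0.08 between genotypes at D4, 0.14, 0.09 and 0.10 at D3, 0.18, 0.13 and 0.08 between days in wild type, and 0.31, 0.35 and 0.36 between days in cKO. Which BeadChips carried the D3 arrays is unknown here. Promoter sequences are from RefSeq.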

Additional observations from a re-analysis of the deposited data

How the results depend on the processing

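Counts of called markers moved with the treatment of the signals, and the cause was not tested. At D3 the count of 1 became 0 with no filter, with the authors' processed values, with only the D3 arrays and with a t-test, 3 with the replicate block and 2 without replicate 1 of all groups. At D4 it became 0 with no filter, with only the D4 arrays, with a t-test and with the block in the D4 arrays alone, 2 with the stricter filter, without background correction, with trend and robust options and without replicate 1 of all groups, and 3 with the replicate block. The averaged count of 3 became 5 with the replicate block. With that block 2.69%, 4.03% and 4.20% of all genes were called higher at D3, at D4 and averaged. In the main fit these shares were 1.94%, 2.79% and 3.60%. The count for the change in wild type became 0 with no filter, the processed values, only its own arrays and the t-test and 3 with the block. The block in the cKO arrays alone changed no call, nor did the random block in the average, chosen after seeing the data. Leaving out single arrays gave 0 to 1 calls at D3, 0 to 4 at D4, 2 to 5 averaged, 0 to 0 in cKO over time and 0 to 1 in wild type over time.

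Of 790 values of single markers under alternatives, 703 kept direction and call, 37 lost a call, 25 gained one and 25 changed sign. The sign changes were all of differences that did not pass. Dcn averaged 0.01 with the processed values, and without replicate 1 of all groups Dcn had 0.13 at D4 and 0.10 averaged, Pdgfra 0.14 at D4 and S100a4 -0.13 at D4. Over single arrays left out, Dcn ranged from -0.02 to 0.28 at D3, -0.39 to 0.20 at D4, -0.14 to 0.16 averaged and -0.23 to 0.37 over time in wild type. Pdgfra ranged from -0.52 to 0.25 at D4 and -0.06 to 0.33 averaged, Lum from -0.03 to 0.48 and S100a4 from -0.20 to 0.32 at D4. Over time in cKO, S100a4 ranged from -0.33 to 0.20, Pdpn from -0.02 to 0.16 and Snai2 from -0.54 to 0.16, and in wild type Pdgfrb from -0.05 to 0.44 and Vim from -0.12 to 0.42. Lum and S100a4 have no value under the stricter filter. Lum was not detected on 3 of 12 arrays, which limits its differences.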

Other observations

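Of 4 tested genes of type III and associated intermediate filaments besides Vim, 1 was called lower in cKO at each day and 0 higher. This was Nes, which encodes nestin, an intermediate filament protein that assembles with vimentin. It gave 9.61, 9.21 and 9.40 on the D3 cKO arrays, against 10.68, 10.39 and 10.45 on the D3 wild type arrays (-1.10, adjusted p = 0.00151). At D4 it gave 9.15, 8.73 and 9.16 on the cKO arrays, against 9.97, 9.96 and 9.79 on the wild type arrays (-0.90, adjusted p = 0.00526). The groups did not overlap at either day, and Vim lay above wild type on the same cKO arrays. Of 10 tested S100 genes besides S100a4, 1 was called higher at D3 and 0 at D4 (5 and 3 with an unadjusted p under 0.05). S100a1, a calcium-binding relative of S100a4 known from muscle, gave 12.92, 12.82 and 12.61 on the D3 cKO arrays, against 11.84, 11.84 and 11.90 on the D3 wild type arrays (0.92, adjusted p = 0.00187), and 13.03, 13.25 and 13.34 on the D4 cKO arrays, against 12.91, 12.53 and 12.77 on the D4 wild type arrays (0.47, adjusted p = 0.0633).

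Pdgfb, the ligand that recruits pericytes through Pdgfrb, was higher in D4 cKO, with 12.83, 12.93 and 12.83 on the cKO arrays, against 12.26, 12.43 and 11.94 on the wild type arrays (0.65, adjusted p = 0.0290), and without D4 wild type replicate 1 the difference was 0.68 (adjusted p = 0.0539). At D3 it had 13.23, 12.86 and 12.72 on the cKO arrays, against 13.10, 13.13 and 13.12 on the wild type arrays (-0.18, adjusted p = 0.697). Flt4, the receptor gene of lymphatic endothelium, was lower in D3 cKO, where 0 arrays detected it (adjusted p = 0.0193, at least 1.34-fold lower), and was not called at D4, where 3 cKO arrays and 1 wild type array detected it (0.57, adjusted p = 0.0255).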
